A study of Mus musculus with 9 samples.

Results

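The genes described here encode the protein components of the cytosolic ribosome, with a few paralogs and retrocopies of such genes, and were followed in mouse lung RNA. They were taken from the gene table by symbol: every Rpl or Rps symbol followed by a digit, together with Rplp0, Rplp1, Rplp2 and Rpsa. Symbols marked -ps (pseudogenes) and the Rps6k kinases were left out, and a mean raw count of at least 50 over the 9 libraries was required. This gave 86 of the 30865 genes in the table, and all 86 also passed the low-count filter of the statistical test. Of these, 76 are genes of canonical ribosome subunits, and the other 10 are the paralogs Rpl22l1, Rpl7l1 and Rps27l, the copies Rpl6l, Rps4l, Rps27rt, Rpl37rt, Rps3a2 and Rps3a3, and Rps19bp1, whose product binds Rps19 but is not a subunit. A further 6 genes fitted the symbols but not the count minimum: Rpl24, Rpl32l, Rpl36al, Rpl39l, Rpl3l and Rps23rg1. Among them was the canonical Rpl24, which averaged 1.61 CPM and overlaps another annotated gene. The 86 genes lie on 19 chromosomes, with 14 of them on chromosome 7.

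The study sequenced RNA from lung tissue of mice in 3 groups of 3 samples: normoxia, hypoxia, and hypoxia followed by knockdown of Hif-1α, here called knockdown. Its design asks what sustained hypoxia does in the lung and what a loss of Hif-1α then changes. Strain, sex, age, oxygen level, exposure time and the means of knockdown are missing from the labels, and no other allele or agent is named for any group. The labels do not say whether each sample is 1 animal, so p-values measure the spread between these samples, which may in part be technical.

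Each ribosome carries 1 copy of nearly all of its proteins on a core of ribosomal RNA: the small subunit (Rps genes) reads the messenger RNA, the large subunit (Rpl genes) joins the amino acids, and the P-stalk (Rplp0, Rplp1 and Rplp2) recruits the translation factors. Ribosomal protein mRNAs are short, abundant and rich in processed copies elsewhere in the genome, because reverse-transcribed spliced mRNAs were inserted there as retrocopies. Most begin with a run of pyrimidines, the TOP motif, through which mTORC1 and LARP1 control their translation and stability, and reduced translation of TOP mRNAs is a known response of cells to low oxygen. An RNA level, as measured here, says nothing of translation.

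The sequence that matters most for reading the counts below is that of Rps27, a zinc-binding protein of the small subunit. Its coding sequence is shown because it also stands, base for base over all 255 bases, in the retrocopy Rps27rt. Rps27 lies at chr3:90212522-90213651, minus strand (GRCm38, GENCODE M21), and Rps27rt at chr9:114982366-114982739, minus strand. Capitals mark the bases on either side of the 3 exon junctions of Rps27.
Rps27 coding sequence: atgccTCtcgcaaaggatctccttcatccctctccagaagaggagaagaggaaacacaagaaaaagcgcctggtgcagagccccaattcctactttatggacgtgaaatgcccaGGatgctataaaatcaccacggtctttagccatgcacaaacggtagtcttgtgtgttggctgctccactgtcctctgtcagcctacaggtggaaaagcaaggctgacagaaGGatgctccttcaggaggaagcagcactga

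The starts of both genes are shown for the opposite reason, since the sequence before them is not shared. The windows run from 60 bases before to 20 bases after the annotated start, from RefSeq (GRCm38.p6), and capitals mark the longest run of C and T that reaches within 10 bases of the start. They are Rps27 (chr3:90213629-90213708, minus strand) and Rps27rt (chr9:114982720-114982799, minus strand).
Rps27 start: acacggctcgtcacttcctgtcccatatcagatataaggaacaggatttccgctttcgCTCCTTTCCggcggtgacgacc
Rps27rt start: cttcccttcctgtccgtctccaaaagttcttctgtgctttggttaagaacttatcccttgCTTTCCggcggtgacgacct

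Counted without gaps, 16 of the 60 bases upstream were equal in the pair. From base 2 after the Rps27 start and base 1 of the Rps27rt start, 38 bases in a row were the same. The next 3 windows are from the members with the highest hypoxia to normoxia ratios among those with a run of at least 8, after Rps27 itself: Rpl28 (chr7:4792905-4792984, plus strand), Rpl38 (chr11:114668520-114668599, plus strand) and Rps26 (chr10:128626487-128626566, minus strand). All 3 hold a pyrimidine run near the annotated start. The run spans the start in Rpl28 and Rpl38, but in Rps26 it begins at base 4, so the annotated Rps26 start does not open with pyrimidines as a TOP mRNA does.
Rpl28 start: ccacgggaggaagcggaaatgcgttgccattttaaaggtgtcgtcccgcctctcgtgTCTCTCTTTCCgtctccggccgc
Rpl38 start: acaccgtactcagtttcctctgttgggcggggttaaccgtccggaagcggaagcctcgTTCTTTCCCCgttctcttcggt
Rps26 start: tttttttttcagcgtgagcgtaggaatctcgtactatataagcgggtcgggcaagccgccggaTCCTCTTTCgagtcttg

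In the RefSeq promoter table, 62 of the 86 symbols had an entry, with 73 promoters in all. A run of at least 8 C or T touching the window from 10 bases before to 10 after the start was found in 41.1% of these, against 14% of all 32851 promoters in the table. Over the whole 300-base window, from 250 bases before to 50 after the start and on both strands, the ETS factor motif CCGGAAG stood in 35.6% against 8.86%, the GC box GGGCGG in 61.6% against 35.7%, and the YY1 motif AAGATGGC in 11% against 2.75%. The TATA box TATAAA was found in 9.59% against 13.6%, the E-box CACGTG in 11% against 7.15%, and ACGTGC, which holds the core bound by HIF, in 6.85% against 5.91%. CACGTG and ACGTGC share the letters ACGTG, so 1 stretch can hold both, and no other pair of these motifs overlaps by more than 3 letters. These shares describe letters in a window and not binding.

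Library totals lay between 15566485 and 18046442 counts, and a count of 3, the floor used here, corresponded to 0.166 to 0.193 CPM (counts scaled to the library total and by TMM). The sample titles carry the word muscle and the tissue field says lung; the lung genes Sftpc and Scgb1a1 were at 13911 and 25145 CPM in normoxia, whereas the skeletal muscle gene Acta1 was at 0.0412 CPM. Hif1a was measured at 93.4, 98.3 and 88.6 CPM in hypoxia and 86.4, 85.5 and 85.0 in knockdown, lower in all 3 knockdown libraries, with a fitted log2 fold change of -0.13 (SE 0.08, edgeR adjusted p = 0.620). A list of 23 T and NK cell genes summed to 115.47 to 142.37 CPM in normoxia, 424.78 to 1292.1 in hypoxia and 437.17 to 625.79 in knockdown, and 22 of the 23 rose in hypoxia against normoxia, where 2.77% of all 17578 tested genes were called higher and 1.45% lower. In bulk tissue, fewer cells of a type and less RNA per cell cannot be told apart.

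Together the 86 genes took 2.62%, 2.13% and 2.12% of all counts in the 3 normoxia libraries, 2.77%, 2.48% and 2.86% in hypoxia, and 2.32%, 2.81% and 2.55% in knockdown. The means were 2.29% ± 0.281 (SD, n = 3), 2.71% ± 0.201 and 2.56% ± 0.245. Normoxia 2 and 3 were the lowest of the 9 libraries, but normoxia 1 lay above hypoxia 2, so the groups overlapped. Grouped by symbol, with paralogs, copies and Rps19bp1 included, both subunits had a higher mean in hypoxia. The large subunit took 1.04% to 1.27% of counts under normoxia and 1.21% to 1.38% under hypoxia. The small subunit took 0.968% to 1.2% and 1.14% to 1.32%.

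The libraries differed across nearly the whole set of genes at once. Normoxia 1 was higher than both other normoxia libraries for 79 of the 86 genes, with a median log2 ratio of 0.34 to their mean. Hypoxia 2 was the lowest hypoxia library for 72 genes, knockdown 1 the lowest knockdown library for 76, and knockdown 2 the highest for 77. Of all 9 libraries, normoxia 2 was the lowest for 45 genes and normoxia 3 for 30. Another set of short abundant mRNAs, 43 nuclear genes of oxidative phosphorylation, was also highest in normoxia 1 and knockdown 2, at 0.27% and 0.266% of counts, against 0.217% to 0.26% in the other 7 libraries. The T and NK cell list was highest in hypoxia 1 and hypoxia 3, at 1292.1 and 1100.3 CPM, and these were also the hypoxia libraries with the larger ribosomal protein share; in knockdown 2, with a share of 2.81%, it was at 439.61 CPM, close to the 437.17 CPM of knockdown 1, with a share of 2.32%. A list of 11 red cell genes summed to 1781.9, 3393.5 and 4630 CPM in the 3 normoxia libraries, highest in normoxia 2 and 3, where the ribosomal protein share was lowest. It summed to 781.67 to 1005.8 CPM in hypoxia and 260.9 to 392.97 in knockdown, with 8 of 11 genes called lower in hypoxia against normoxia and 10 of 11 in knockdown against normoxia by edgeR, at median log2 fold changes of -1.98 and -3.68. A list of 15 cell cycle genes summed to 214.04 to 248.81 CPM in normoxia, to 666.09, 295.04 and 618.48 in the 3 hypoxia libraries, lowest in hypoxia 2, and to 342.34 to 384.18 in knockdown. Of these, 13 were called higher in hypoxia against normoxia and 1 in knockdown against normoxia. The part of these 4 lists in the ribosomal protein levels was not tested.

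**Figure D1:**
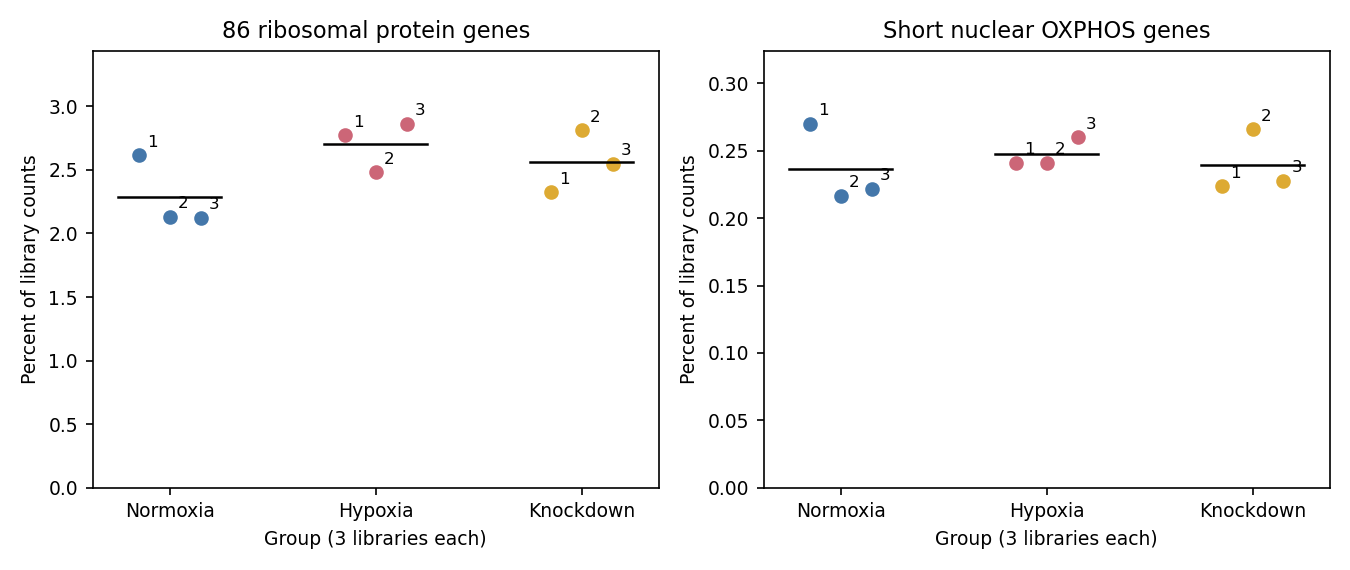
Percent of all library counts (y axis, from 0) taken by the 86 ribosomal protein genes (left) and by 43 short nuclear genes of oxidative phosphorylation (right) in each of 3 libraries per group, labelled by replicate number, with the group mean as a bar. Normoxia 1, at 2.62%, stands above normoxia 2 and 3 on the left, and normoxia 1 and knockdown 2 are the highest libraries on the right.

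**Figure D2:**
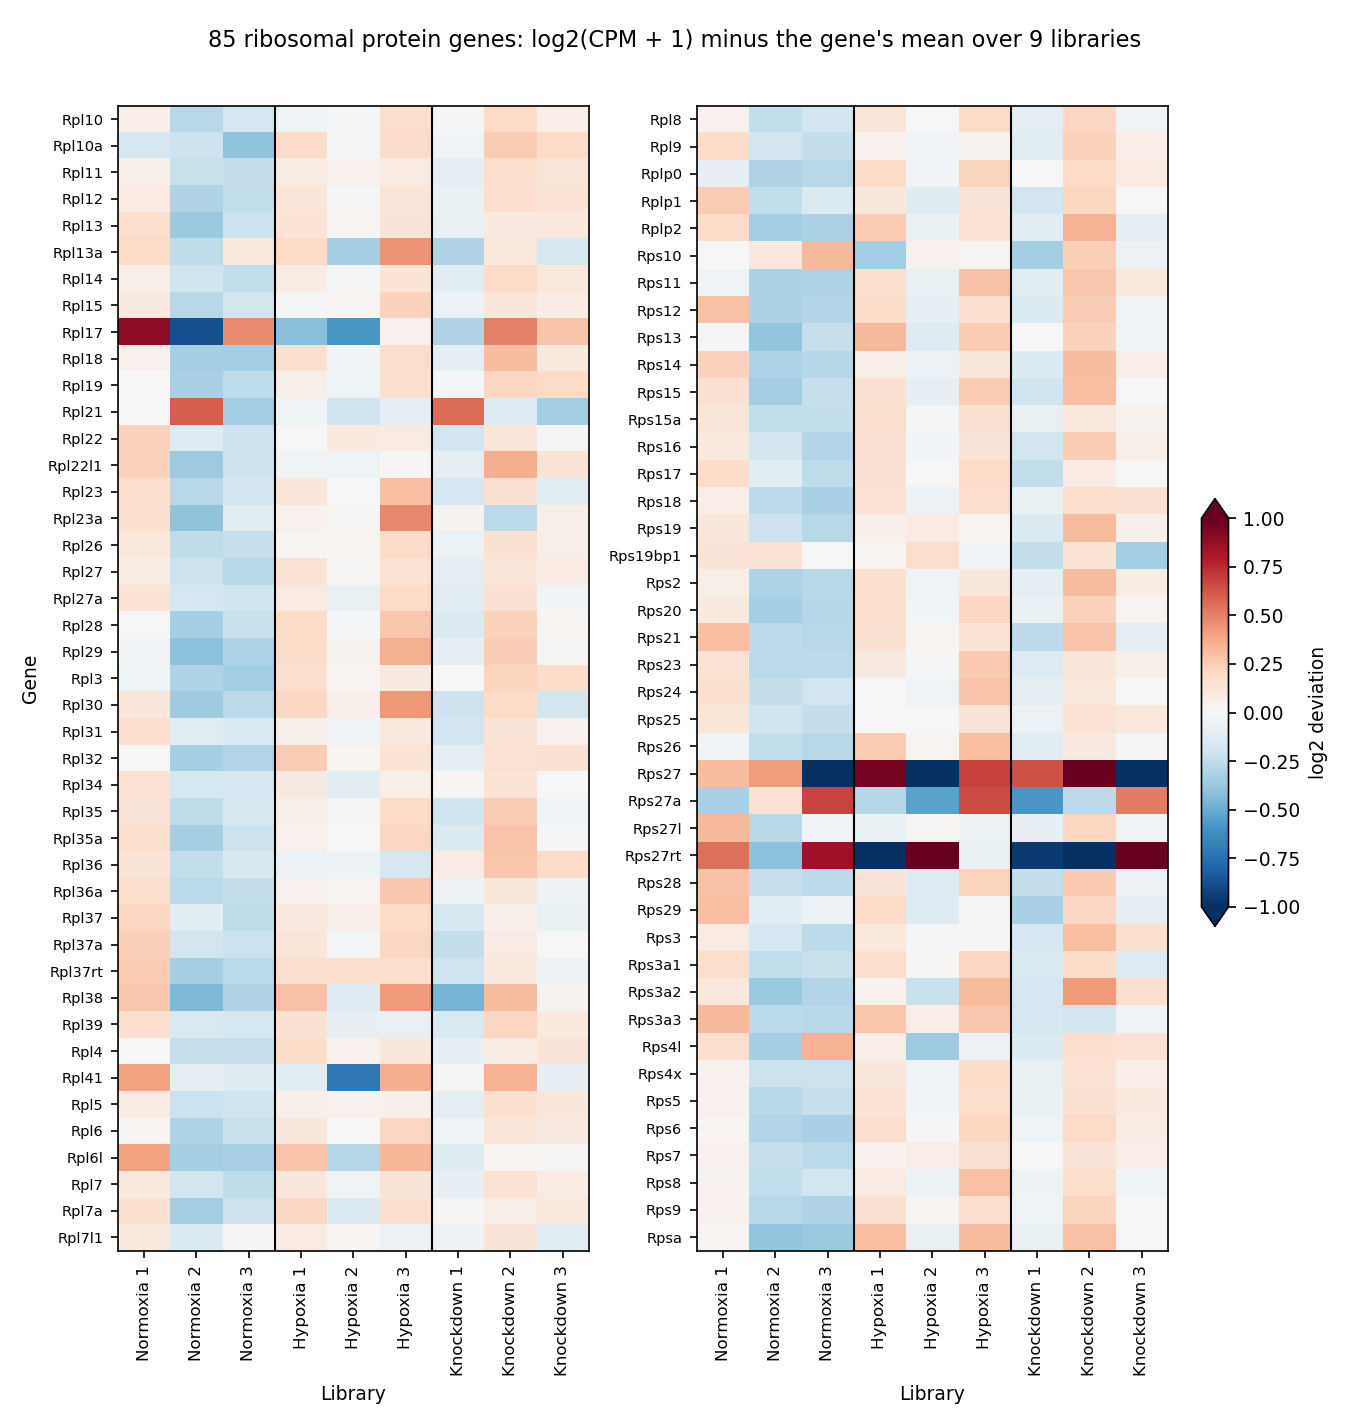
Heatmap of log2(CPM + 1) minus the gene's own mean over the 9 libraries (x axis) for 85 of the 86 genes (y axis, by symbol), with colour limited to 1 log2 unit either way and lines between the groups. Most genes share the pale blue of normoxia 2 and 3 and the pale red of knockdown 2, and the rows of Rps27, Rps27rt, Rpl17, Rpl21 and Rps27a depart from that common pattern.

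In hypoxia against normoxia most ribosomal protein genes had log2 fold changes slightly above 0, and no single gene of the set passed the test. The log2 fold change was above 0 for 75 of the 86 genes (87.2%, against 48.7% of all tested genes), with a median of 0.20, a fold of 1.15, against a median of -0.0079 over all 17578 genes. By edgeR's quasi-likelihood test with Benjamini-Hochberg adjustment over all genes, 0 of 86 were called higher and 0 lower; at an unadjusted p under 0.05, 23 were higher (26.7%, against 9.28% of all genes) and 0 lower (against 8.17%). DESeq2 called 8 higher (9.3%, against 4.63% of all genes) and limma-voom 0 (against 1.52%). The value in every hypoxia library was above every normoxia library for 8 genes (9.3%, against 10.6% of all genes), among them Rpl10a, Rpl29, Rpl3, Rplp0 and Rps26, and below for 0 (against 11.6%). Without normoxia 1, the library with the highest levels of its group, the median was 0.34 and 4 genes were called higher (4.65%, against 1.58% of all genes), Rpl29, Rpl3, Rpl32 and Rps26. Without hypoxia 2, the lowest of its group, 4 were called higher, Rpl10a, Rplp0, Rps13 and Rps26, which is 4.65% against 4.17% of all genes.

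Of the 46 members with Rpl symbols outside the P-stalk, paralogs and copies included, 42 had log2 fold changes above 0, with a median of 0.20. Rpl29 was measured at 101, 77.0 and 82.8 CPM under normoxia, 117, 105 and 131 under hypoxia and 96.6, 122 and 103 after knockdown. Rpl29, a small basic protein, lay higher in all 3 hypoxia libraries than in any normoxia library, with a fitted log2 fold change of 0.44 (SE 0.13, edgeR adjusted p = 0.0858). Rpl10a was measured at 236, 229 and 201 CPM under normoxia, 304, 262 and 302 under hypoxia and 260.2, 317 and 303 after knockdown. Rpl10a, a protein of the L1 stalk by which spent tRNA leaves, showed the same separation, with a fitted log2 fold change of 0.38 (SE 0.10, edgeR adjusted p = 0.0650). With its copies' counts added, normoxia 1, at 296 CPM, exceeded hypoxia 2, at 284, and the log2 fold change was 0.27 with an adjusted p of 0.246 by edgeR. Rpl30 was measured at 248, 179 and 190.1 CPM under normoxia, 266, 239.9 and 310.5 under hypoxia and 199, 263 and 202 after knockdown. For Rpl30, normoxia 1 exceeded hypoxia 2, so these groups overlapped, and a fitted log2 fold change of 0.40 (SE 0.15, edgeR adjusted p = 0.188) was found. The 4 smallest ratios of the whole set included the large subunit genes Rpl17, at -0.64, and Rpl21, at -0.25; both are taken up with their copies below.

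The 3 P-stalk genes all lay above 0, but their single sizes differed. Rplp0 was measured at 684, 586 and 596 CPM under normoxia, 821, 709 and 842 under hypoxia and 722, 829.8 and 767 after knockdown. Rplp0, the base of the stalk, was higher in every hypoxia library than in every normoxia library, with a fitted log2 fold change of 0.35 (SE 0.10, edgeR adjusted p = 0.0792). Rplp1 and Rplp2, which form the tip and vary more between libraries, had log2 fold changes of 0.07 (SE 0.14) and 0.25 (SE 0.17), with adjusted p of 0.859 and 0.492 by edgeR.

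Of the 37 members with Rps symbols, among them Rps19bp1, the paralog Rps27l and several copies, 30 lay above 0, with a median of 0.21. Rps26 was measured at 105, 90.0 and 88.2 CPM under normoxia, 127, 109 and 132 under hypoxia and 98.5, 114 and 106 after knockdown. Rps26, which lines the exit channel of the mRNA, was the 1 gene of these 37 higher in every hypoxia library than in every normoxia library. Of all genes, 10.6% were higher in that way and 11.6% lower, and 0 of the 37 were lower. Its fitted log2 fold change was 0.38 (SE 0.10, edgeR adjusted p = 0.0660). Rpsa was measured at 709, 534 and 542 CPM under normoxia, 864, 664 and 869.9 under hypoxia and 665, 860.5 and 698 after knockdown. Rpsa, known also as the laminin receptor, was above its normoxia median in all 3 hypoxia libraries, but hypoxia 2 fell below normoxia 1, and a fitted log2 fold change of 0.43 (SE 0.15, edgeR adjusted p = 0.155) was found. Rps27 had the largest ratio of the set, 0.44, with an SE of 0.66, an adjusted p of 0.806 by edgeR and a 95% interval from -1.01 to 1.89. Rps10 and Rps4l were among the 4 smallest, at -0.27 and -0.20.

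**Figure D3:**
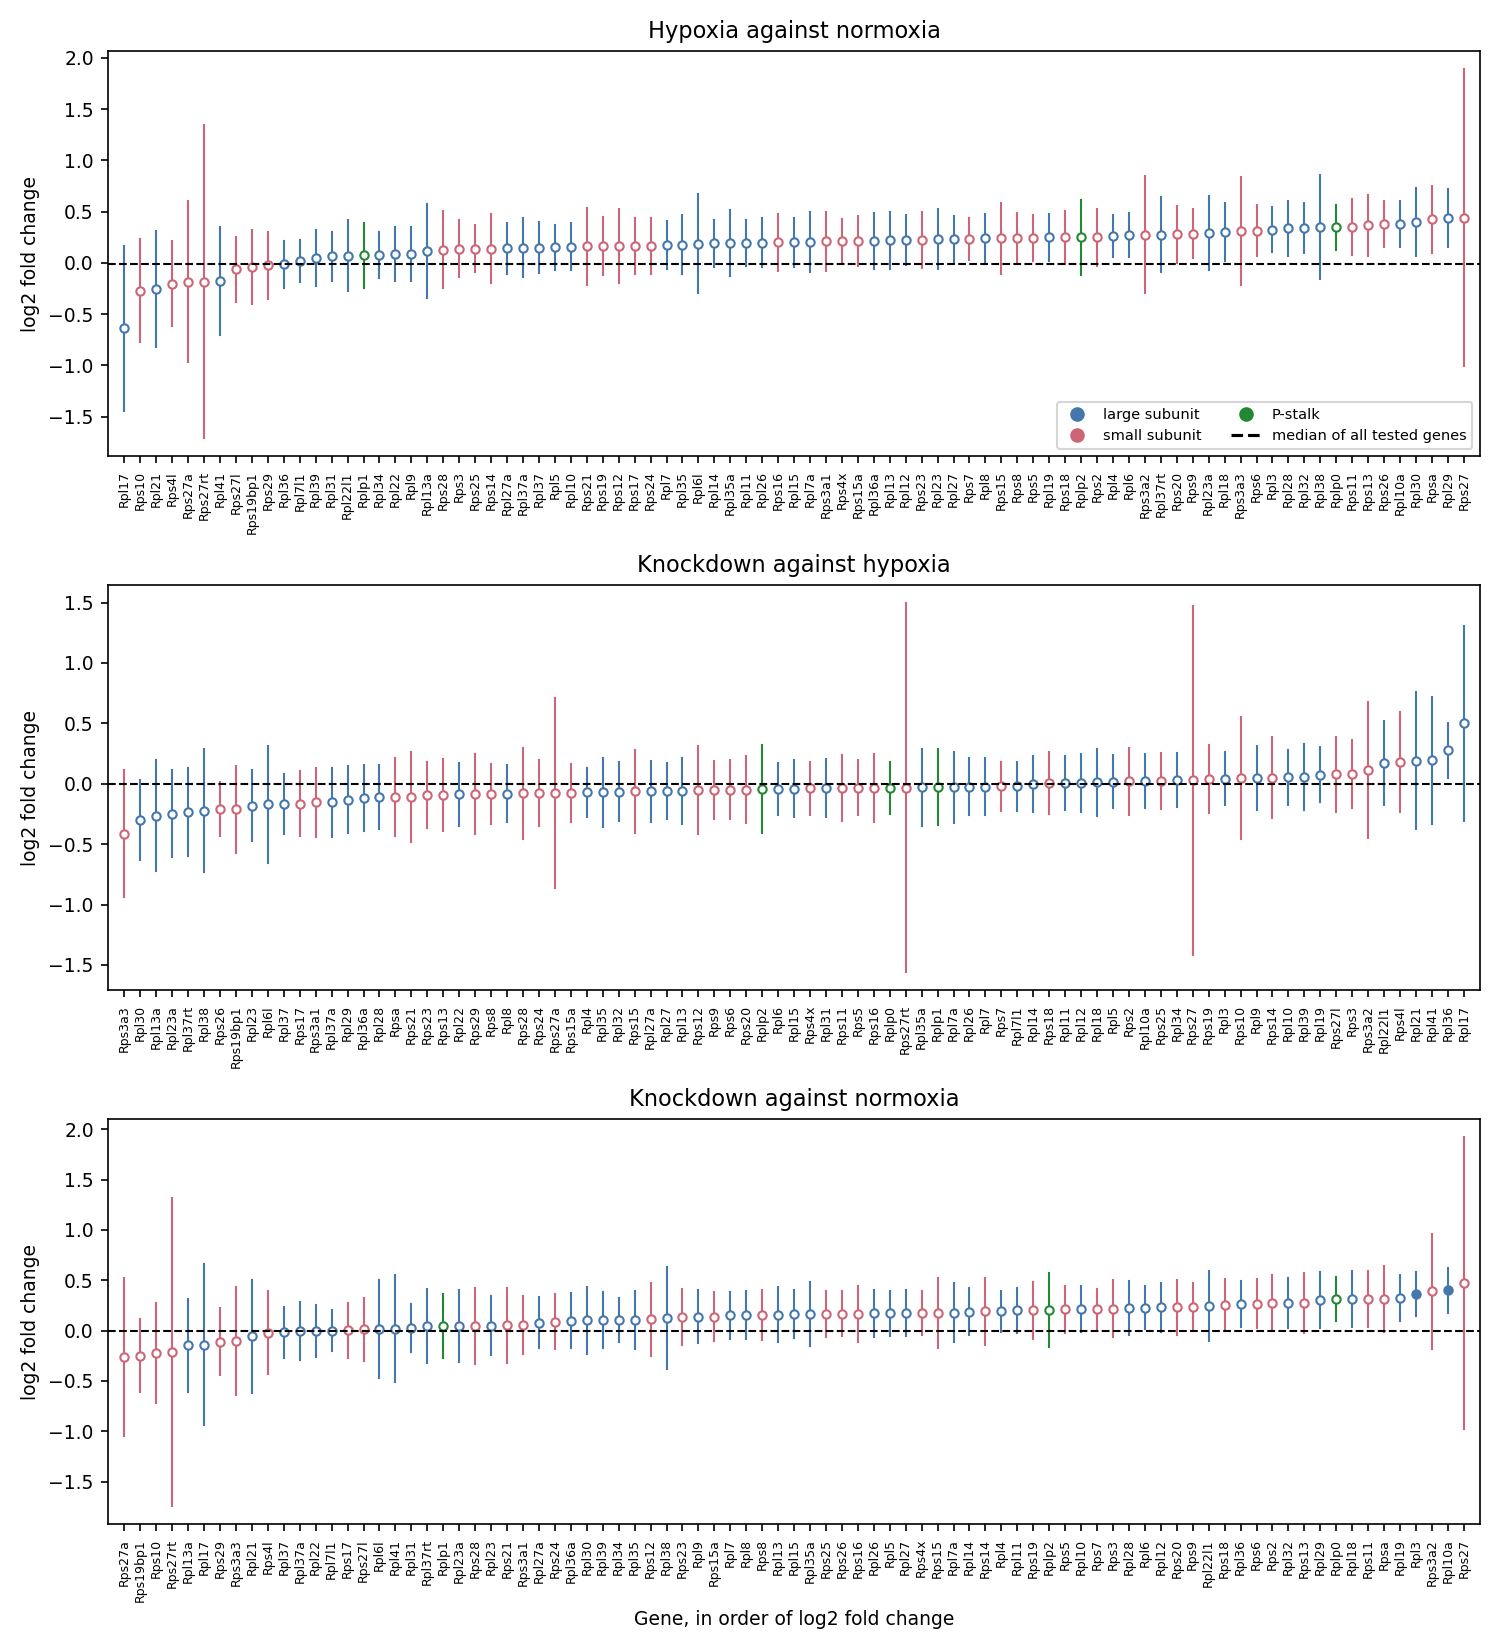
Log2 fold change (y axis) of 85 of the 86 genes, in order of size (x axis), with hypoxia against normoxia on top, knockdown against hypoxia in the middle and knockdown against normoxia at the bottom. Vertical lines are 95% intervals from the edgeR fit, filled points passed an adjusted p of 0.05 (only Rpl10a and Rpl3 in the bottom panel), and the dashed line is the median of all tested genes, below most points in the top and bottom panels.

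In knockdown against hypoxia most ribosomal protein genes had log2 fold changes close to 0. The median log2 fold change was -0.039, against -0.0031 over all genes, and 28 of 86 genes lay above 0 (32.6%, against 49.4%). By edgeR, 0 were called in either direction, where 1.26% of all genes were called higher and 0.449% lower. DESeq2 also called 0 (against 2.06% of all genes higher and 1.17% lower), as did limma-voom (against 1.31% and 0.228%). Only 1 gene had an unadjusted p under 0.05 by edgeR, on the higher side (1.16%, against 5.94% of all genes higher and 5.02% lower). That gene was Rpl36, of the large subunit. Rpl36 was measured at 103, 78.9 and 83.7 CPM under normoxia, 89.5, 90.4 and 83.2 under hypoxia and 98.8, 113 and 107 after knockdown. It was higher in all 3 knockdown libraries than in any hypoxia library, the 1 gene of 86 (1.16%, against 8.58% of all genes) with that separation, with a fitted log2 fold change of 0.28 (SE 0.10, edgeR adjusted p = 0.324). Copies took 15.9, 3.41 and 13.1% of the counts of Rpl36 and its copies under hypoxia and 4.22, 2.74 and 5.69% after knockdown. With them added, hypoxia 1, at 107 CPM, exceeded knockdown 1, at 103, and the log2 fold change was 0.17 with an adjusted p of 0.624 by edgeR. Below hypoxia in every library were Rpl37, its copy Rpl37rt and the copy Rps3a3 (3.49%, against 7.43%). Of the 50-base stretches of Rpl37rt and Rps3a3, 91.0% and 65.1% also stand in other genes, so these may not be separate gene levels. Rpl37 was measured at 199.8, 161 and 145 CPM under normoxia, 184, 179 and 197 under hypoxia and 155, 179 and 165 after knockdown. For Rpl37, a fitted log2 fold change of -0.17 (SE 0.11, edgeR adjusted p = 0.680) was found. The largest log2 fold changes were Rpl17 (0.50), Rpl36 (0.28), Rpl41 (0.19) and Rpl21 (0.19), and the smallest Rps3a3 (-0.41), Rpl30 (-0.30), Rpl13a (-0.27) and Rpl23a (-0.25), and their 95% intervals included 0 in all of these except Rpl36. The sign of the median turned without hypoxia 3 (0.0036) and without knockdown 1 (0.023), and it was -0.11 without hypoxia 2 and also without knockdown 2.

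Knockdown against normoxia shares the normoxia libraries with the first comparison and is set beside it without a test between them. Of the 86 genes, 72 lay above 0 (83.7%, against 49.3% of all genes), with a median log2 fold change of 0.16, a fold of 1.12. Rpl10a and Rpl3 rose and 0 genes fell by edgeR, which is 2.33% called higher against 4.79% of all genes and 0 called lower against 3.44%. At an unadjusted p under 0.05, 13 were higher (15.1%, against 12%) and 0 lower (against 11.1%). For Rpl10a (ENSMUSG00000037805, chr17:28328471-28331033, plus strand), a fitted log2 fold change of 0.40 (SE 0.10, edgeR adjusted p = 0.0347) was found, with the values given above. Rpl3 was measured at 638, 532 and 518 CPM under normoxia, 739.9, 672 and 701 under hypoxia and 659, 766 and 749 after knockdown. Rpl3 (ENSMUSG00000060036, chr15:80077791-80091868, minus strand), which reaches into the peptidyl transferase centre, was lower in all 3 normoxia libraries than in any other library, with a fitted log2 fold change of 0.36 (SE 0.10, edgeR adjusted p = 0.0480). Rpl10a, Rpl3 and Rplp0 were among the 4 genes whose knockdown libraries all exceeded the normoxia libraries (4.65%, against 14.5% of all genes). For Rplp0 the values were 0.31 (SE 0.10) with an adjusted p of 0.0782 by edgeR. In the test among the 3 groups, 1 of 86 genes, Rpl10a, passed (1.16%, against 7.95% of all genes; adjusted p = 0.0496 by edgeR).

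Both calls sat close to the threshold. Leaving out single libraries, both were lost without normoxia 2 (adjusted p of 0.0689 for Rpl10a and 0.137 for Rpl3 by edgeR), normoxia 3 (0.152 and 0.182), hypoxia 3 (0.0519 and 0.0701), knockdown 2 (0.113 and 0.132) and knockdown 3 (0.103 and 0.125), and Rpl3 alone without hypoxia 1 (0.0636) and hypoxia 2 (0.0547). Without normoxia 1, 6 genes were called higher (6.98%, against 3.39% of all genes), among them Rpl10a, Rpl3, Rpl36 and Rps7, and the median was 0.28. Without knockdown 1, 3 were called higher, Rpl10a and Rpl3 among them, which is 3.49% against 3.63% of all genes. The median was 0.097 without normoxia 2, 0.11 without normoxia 3 and 0.076 without knockdown 2. For Rpl10a, 88.1% of the 50-base stretches of its transcript also occur in transcripts of other genes, and the copy Rpl10a-ps1 matches its coding sequence at all but 2 of 651 aligned bases, the substitutions T2G and G3C counted from the A of the start codon. Copies took 20.3, 6.16 and 15.3% of the counts of Rpl10a and its copies under normoxia, 5.50, 8.07 and 8.17% under hypoxia and 5.11, 7.48 and 3.97% after knockdown, so the highest shares were in normoxia 1 and 3. With the counts of the copies added to each gene, Rpl10a in knockdown against normoxia had a log2 fold change of 0.26 and an adjusted p of 0.187 by edgeR, with normoxia 1 above knockdown 1. Rpl3 had a log2 fold change of 0.36 and an adjusted p of 0.0528 by edgeR. In that fit 0 genes of the set were called by edgeR, against 4.82% of all genes higher and 3.48% lower.

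Per kilobase of reference transcript, the 76 canonical genes ranged from 6.54 to 1285 CPM, with a median of 380.3. The 5 highest were Rps14 at 1285, Rplp1 at 927, Rps15 at 890.3, Rps3a1 at 785 and Rpl41 at 753 CPM per kb, of which Rps14 sits on the platform of the small subunit and Rpl41 encodes the smallest ribosomal protein. Rps14 was measured at 889.9, 615 and 624 CPM under normoxia, 791, 731 and 824 under hypoxia and 692, 943 and 795 after knockdown. Normoxia 1 and knockdown 2 were the top libraries for Rps14, and a fitted log2 fold change of 0.14 (SE 0.15, edgeR adjusted p = 0.708) was found in hypoxia against normoxia. At the low end stood Rps10, at 6.54, and Rpl13a, at 17.1 CPM per kb. Both low genes overlap another annotated gene, Rps10 over 63.6% of its transcript (RPS10-NUDT3) and Rpl13a over 59.3% (Gm45713). The sources used here do not say whether counting left out reads in such overlaps.

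For a few genes the values turned on how counts fell between a gene and its copies. The table holds 184 genes named as ribosomal protein pseudogenes, 41 of them with a mean count of at least 50. Copies whose counts were added to a gene were found by name: -ps symbols, Rps27rt, Rpl37rt, Rps3a2 and Rps3a3. By that rule 55 of the ribosomal protein genes have at least 1 copy in the table. Copies under other names were not added. Among these were Rpl6l and Gm9794, which shares 32.1% of the 50-base stretches of Rpl23 and had a mean count of 2787.2. A median of 56.7% of the 50-base stretches of a member's transcript, from 0% to 98.6%, also stood in transcripts of other genes. Rps27 was measured at 166, 179 and 46.1 CPM under normoxia, 260.2, 54.4 and 215 under hypoxia and 209, 277 and 55.8 after knockdown. Rps27rt was measured at 169, 86.2 and 208 CPM under normoxia, 46.6, 251 and 109.6 under hypoxia and 58.6, 51.3 and 289 after knockdown. Libraries with little Rps27 had much Rps27rt: Rps27rt took 50.4, 32.6 and 81.8% of the pair's counts under normoxia, 15.2, 82.2 and 33.7% under hypoxia and 21.9, 15.6 and 83.8% after knockdown. In each group 1 library, normoxia 3, hypoxia 2 and knockdown 3, had most of the pair on the retrocopy. The summed pair was even, at 334, 265 and 253 CPM under normoxia, 307, 306 and 325 under hypoxia and 267, 328 and 344 after knockdown. The biological coefficient of variation, the spread between libraries beyond counting error, was 54.3% for Rps27 alone and 11.7% for the sum, and the log2 fold change in hypoxia went from 0.44 to 0.14. Since their coding sequences are the same, as shown above, a read inside that sequence names neither gene, and the values of Rps27 and Rps27rt can be read only as a sum.

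**Figure D4:**
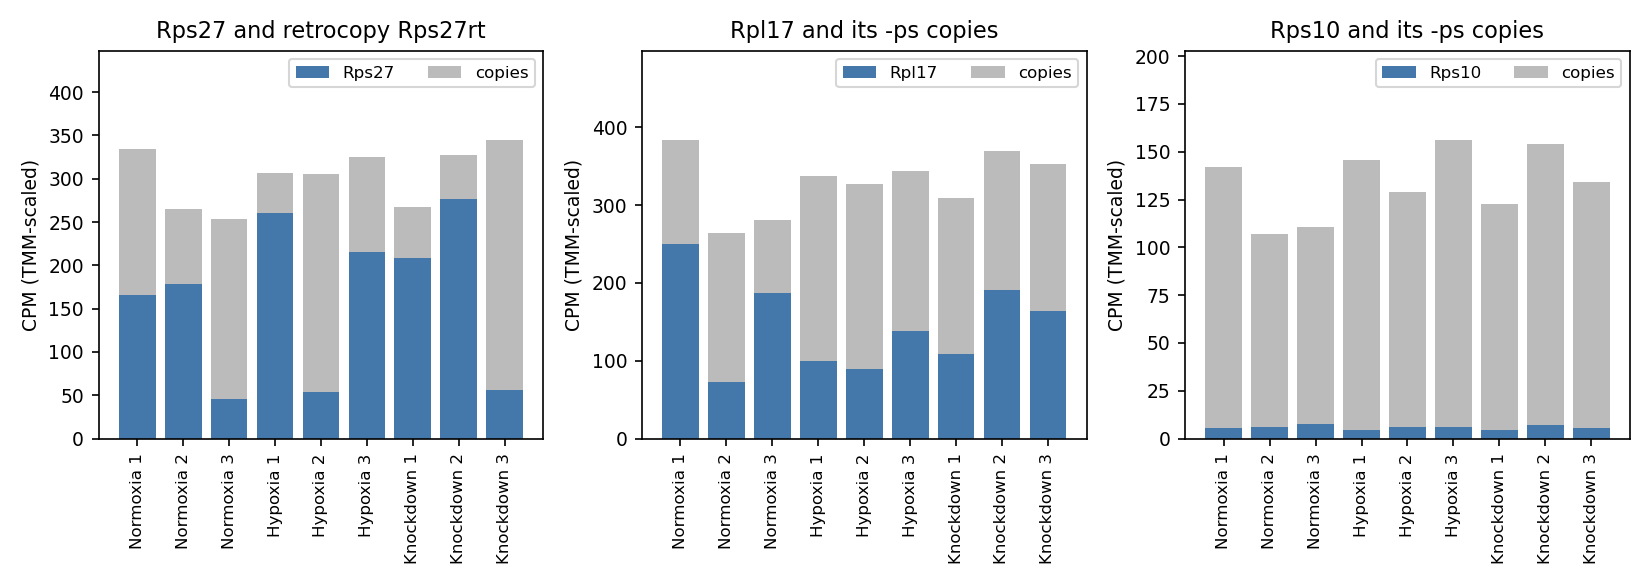
Stacked bars of TMM-scaled CPM (y axis, from 0) in each of the 9 libraries for Rps27 with Rps27rt (left), Rpl17 with its -ps copies (middle) and Rps10 with its -ps copies (right), the gene in blue and its copies in grey. The blue part of Rps27 runs from 46.1 to 277 CPM while the height of the bar stays between 253 and 344, and Rps10 is nearly all grey.

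For Rpl17, which lies at the exit of the nascent chain tunnel, the sum with its copies also varied less between libraries than the gene alone. How reads were assigned between Rpl17 and its copies was not tested. Rpl17 was measured at 250.5, 72.5 and 187 CPM under normoxia, 100.3, 89.3 and 138 under hypoxia and 109, 191 and 164 after knockdown. Normoxia alone spanned 72.5 to 250.5 CPM. Its copies, chiefly Rpl17-ps10 with 4 mismatches in 555 coding bases, took 34.6, 72.6 and 33.5% of the family under normoxia, 70.2, 72.7 and 59.8% under hypoxia and 64.8, 48.3 and 53.6% after knockdown. Summed, the log2 fold change of -0.64 in hypoxia became 0.12 (SE 0.13), that of 0.50 in knockdown against hypoxia became 0.03, and the coefficient of variation went from 31.2% to 12.4%. Alone, Rpl17 had the lowest log2 fold change of the 86 genes in hypoxia and the highest in knockdown against hypoxia.

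Rps10 was measured at 5.75, 6.22 and 7.44 CPM under normoxia, 4.32, 5.93 and 5.86 under hypoxia and 4.30, 6.92 and 5.45 after knockdown. Rps10, on the head of the small subunit, was thus almost absent under its own name, with 95.6% of the family's counts on copies, mainly Rps10-ps2, which differs at 5 of 496 aligned coding bases (T393C, T408C, C437G, A438G and G473A). The family summed to 142, 107 and 111 CPM under normoxia, 146, 129 and 156 under hypoxia and 123, 154 and 134 after knockdown, and its log2 fold change in hypoxia was 0.26, where Rps10 alone had -0.27. For Rps12, whose copy Rps12-ps3 has an identical coding sequence of 399 bases, the copies held 38.6% to 43.2% in every library, and the log2 fold change in hypoxia was 0.17 alone and 0.16 summed. For Rpl21, a large subunit protein, it was -0.25 alone and -0.02 summed. Rps12 and Rps27 both have a copy with the same coding sequence, yet their copy shares were even in one and uneven in the other.

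In the fit with summed counts, the coefficient of variation was lower for 46 of the 55 genes with copies found by name, by a wide margin in a few. It also moved slightly for genes with no copy added, down for Rpl11 (10.3% to 10.2%) and up for Rpl22l1 (14.46% to 14.47%). The count of 46 therefore does not measure summing alone. Before summing, members had a median coefficient of 12.2%, against 14.7% over all tested genes. Rps27a, made as a fusion with ubiquitin, stayed uneven, going from 30.5% to 26.9%. Rps27a was measured at 141, 195 and 282 CPM under normoxia, 144, 122 and 278 under hypoxia and 118, 147 and 251 after knockdown. The highest library of Rps27a was replicate 3 in each of the 3 groups, at 282, 278 and 251 CPM, and its log2 fold change in hypoxia was -0.18 (SE 0.36).

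**Figure D5:**
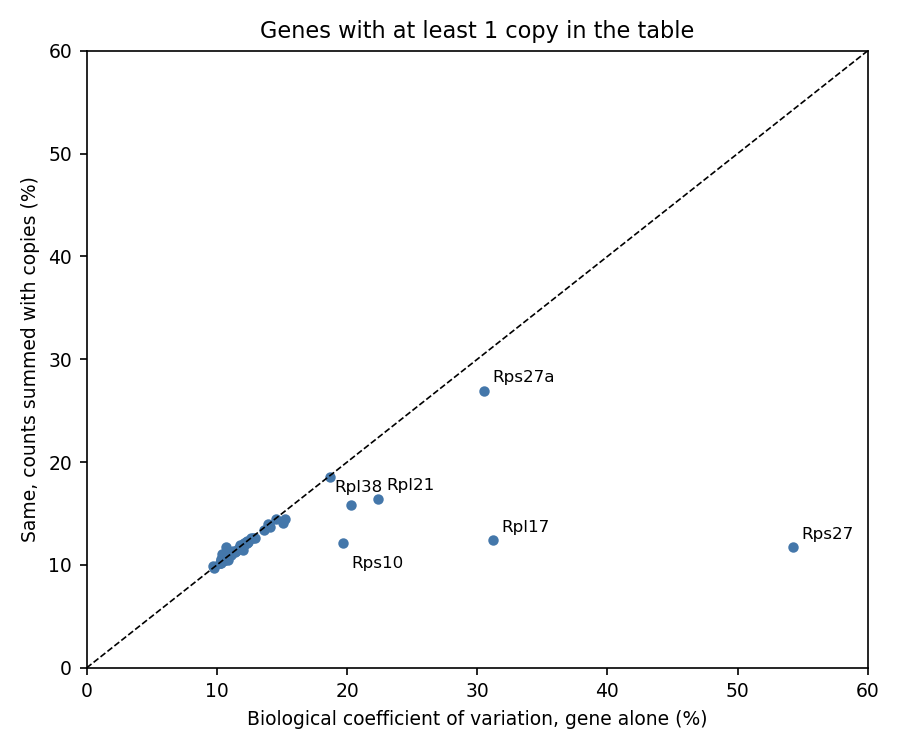
Biological coefficient of variation over the 9 libraries for each of the 55 genes with at least 1 copy found by name in the table. The gene alone is on the x axis (percent) and the sum with its copies' counts on the y axis (percent). The line of equality is dashed. Most points lie on the line at low values, while Rps27 goes from 54.3% to 11.7% and Rpl17 from 31.2% to 12.4%.

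The paralogs and copies counted among the 86 had lower levels per kb than their partners. Rpl22l1, the paralog of Rpl22, averaged 41.0 ± 9.36 CPM in normoxia (SD, n = 3), 43.1 ± 0.858 in hypoxia and 48.6 ± 7.91 in knockdown, where Rpl22 averaged 196 ± 32.5, 208 ± 7.34 and 195 ± 21.4. Rps27l, a p53 target, averaged 45.1 ± 9.70, 43.1 ± 1.29 and 45.5 ± 5.27 CPM, and Rpl7l1, a relative of Rpl7, 80.2 ± 6.60, 81.3 ± 3.88 and 80.2 ± 6.98. On the scale per kb, Rpl22l1 was at 80.2 CPM against 421 for Rpl22, and Rpl7l1 at 30.9 against 550.0 for Rpl7. Rps27l was at 89.3 CPM per kb, and Rps27 and Rps27rt, whose split of counts cannot be read, were listed at 471 and 377. Rpl6l, a processed copy with 11 mismatches to Rpl6, had 26.8 against 282, and Rps4l 25.2 against 598 for Rps4x. Rps3a2 and Rps3a3, copies of Rps3a1, had 6.80 and 5.56 CPM per kb. Rpl37rt was measured at 19.6, 12.8 and 13.3 CPM under normoxia, 18.3, 18.5 and 18.4 under hypoxia and 14.0, 17.4 and 15.6 after knockdown. Its coding sequence differs from that of Rpl37 at 1 base (G249A), and 81.2% of its 50-base stretches also stand in Rpl37. The sources used here do not say how reads from them were assigned, so its level may not be separate from that of Rpl37. Rps19bp1, which binds Rps19 and the deacetylase SIRT1, averaged 11.2 ± 0.668, 10.9 ± 0.899 and 9.43 ± 1.87 CPM, while Rps19 averaged 384 ± 57.5, 430.5 ± 8.91 and 442 ± 72.2. Of these 10 genes, 0 were called in any comparison by edgeR. Between 2 groups, the shares of all genes called higher or lower ran from 0.449% to 4.79%. At an unadjusted p under 0.05 by edgeR there were also 0, against 17.5%, 11% and 23.1% of all genes in the 3 comparisons. DESeq2 called 0 as well (against 1.17% to 6.53%), and limma-voom 0 (against 0.228% to 4.32%). In hypoxia against normoxia 6 of 10 lay above 0, against 48.7% of all genes.

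Genes tied to the ribosome from outside were described by lists. Of 31 other genes with TOP mRNAs or roles in translation, 27 lay above 0 in hypoxia against normoxia, with a median log2 fold change of 0.19. At an unadjusted p under 0.05 by edgeR there were 14 in either direction (45.2%, against 17.5% of all genes). For 14 genes every hypoxia library was above every normoxia library, and for 1 below (against 10.6% and 11.6% of all genes). By adjusted p, 1 rose (3.23%, against 2.77% of all genes). That gene was Eif3f, a subunit of an initiation factor. Eif3f was measured at 120.4, 123 and 124 CPM under normoxia, 159.7, 151 and 161 under hypoxia and 149, 164 and 137 after knockdown. It was higher in all hypoxia and knockdown libraries than in normoxia, with a fitted log2 fold change of 0.36 (SE 0.08, edgeR adjusted p = 0.0321) in hypoxia and 0.29 (SE 0.08, adjusted p = 0.0481) in knockdown against normoxia, where the list's median was also 0.19. Rack1 was measured at 533, 468 and 463 CPM under normoxia, 624, 562 and 608 under hypoxia and 516, 617 and 589 after knockdown. Rack1, a scaffold on the small subunit, had a fitted log2 fold change of 0.29 (SE 0.09, edgeR adjusted p = 0.119) in hypoxia, with no overlap of the groups. Fau was measured at 322, 245 and 256 CPM under normoxia, 352, 314 and 392 under hypoxia and 307, 412 and 320.4 after knockdown. Fau, which encodes Rps30 as a fusion, had a fitted log2 fold change of 0.36 (SE 0.14, edgeR adjusted p = 0.199), and hypoxia 2 lay below normoxia 1.

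Among 40 ribosome biogenesis genes the median was 0.068 in hypoxia and -0.10 in knockdown against hypoxia, with 0 called in either by edgeR and 4 and 5 (10% and 12.5%) at an unadjusted p under 0.05, where 17.5% and 11% of all tested genes had one. Among 77 mitochondrial ribosomal protein genes it was 0.056 and 0.026, with 0 called and 3 and 1 (3.9% and 1.3%) at an unadjusted p under 0.05. The 20 regulators of the mTORC1, LARP1 and MYC list had medians of -0.032 and -0.012, with 0 called and 1 and 2 (5% and 10%) at an unadjusted p under 0.05. Larp1 was measured at 136, 139 and 128 CPM under normoxia, 135, 127 and 127 under hypoxia and 121, 110.4 and 109 after knockdown. Larp1, which binds TOP mRNAs, was lower in every knockdown library than in any other, with a fitted log2 fold change of -0.25 (SE 0.07, edgeR adjusted p = 0.0697) against normoxia. Myc was measured at 6.07, 5.32 and 4.44 CPM under normoxia, 8.36, 5.41 and 6.32 under hypoxia and 6.87, 7.90 and 7.21 after knockdown. Myc, an activator of ribosome genes, had a fitted log2 fold change of 0.47 (SE 0.21, edgeR adjusted p = 0.204) in knockdown against normoxia, without overlap, and Mtor -0.03 (SE 0.11, adjusted p = 0.901 by edgeR). Zfas1, a host gene of small nucleolar RNAs that are processed from its introns, rose in knockdown against normoxia. Zfas1 was measured at 21.2, 17.2 and 19.4 CPM under normoxia, 19.3, 21.2 and 19.8 under hypoxia and 25.5, 28.5 and 25.4 after knockdown, with a fitted log2 fold change of 0.46 (SE 0.11, edgeR adjusted p = 0.0302).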

How the data were processed

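RNA of 9 mouse lung samples was measured as read counts per gene. Total RNA went into NEBNext Ultra libraries, per the labels' protocols. The deposited count table, not normalized, is the authors' own; HISAT2, TopHat and StringTie on mm10, with limma and DESeq, are named per the submitters' processing notes. The sources used here do not give versions, the counting program, read length or strand. The test was edgeR 4.0.16 (R 4.3.3): filterByExpr kept 17578 genes, TMM scaled the libraries (factors 0.976 to 1.03), and 1 quasi-likelihood model over all 9 libraries, with 6 residual degrees of freedom and a common coefficient of variation of 17.3%, gave each contrast, adjusted by Benjamini-Hochberg over all genes at 0.05. The script was tested on simulated data. Intervals cover 95%, counts and floors cover counting error only, and the depth per sample is given above. DESeq2 1.42.0, limma 3.58.1 (voom), other scalings and filters, a replicate block and leaving out each library were alternatives. The 2 alternatives on copies were added after seeing the data. Positions come from GENCODE M21 by gene identifier, since only 639 of 30388 shared identifiers had the same position in the table, whose own coordinates were not used. Chi-square per degree of freedom between libraries of a group was 11.9 to 23.5, so none was a repeat deposit of another in its group. Libraries of different groups were not compared in this way. Of the genes the naming rule covers, 2 are not reported here by name, and 1 of them, a member, is not drawn in the plots that label each gene, though both stay in the counts and medians. The members and lists were chosen with earlier results of these data known. Named genes were the called members, the 4 largest and 4 smallest changes per contrast, the 5 highest per kb, paralogs with partners, called list members (up to 4 a list) and 7 fixed genes; genes named for groups that do not overlap, or for their copies, were chosen after their values were seen.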

Additional observations from a re-analysis of the deposited data

How the results depend on the processing

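The median log2 fold changes of the 86 genes kept their sign in hypoxia against normoxia and in knockdown against normoxia under every alternative run, from 0.14 to 0.34 and from 0.076 to 0.28. Counts of called genes moved more; the cause was not tested except where fewer or more genes or libraries entered. In hypoxia against normoxia, 2 were called higher with library totals only (2.33%, against 2.88% of all genes) and 8 by DESeq2 (9.3%, against 4.63%). Without the low-count filter 6 were called higher (6.98%, against 2.76%). Leaving out 1 library gave 0 to 4 called higher, where 0.766% to 4.17% of all genes were. In knockdown against normoxia, 1 was called higher with upper quartile scaling and with only 6 libraries (1.16%, against 4.51% and 5.08% of all genes). DESeq2 called 5 higher (5.81%, against 6.53% of all genes). With counts summed with copies 0 were called higher (against 4.82%). Leaving out 1 library gave 0 to 6 called higher, where 2.54% to 5.2% of all genes were. Among 3 groups, 0 were called with upper quartile scaling, by limma-voom and with counts summed with copies (against 8.07%, 6.8% and 8.02% of all genes). By DESeq2 and without the filter 6 (6.98%) were called (against 12.8% and 7.11% of all genes). Leaving out 1 library gave 0 to 3, where 3.76% to 9.15% of all genes were called. The percent of genes above 0 in knockdown against hypoxia was 17.4% with library totals only, and 10.5% to 62.8% leaving out 1 library. No scaling moved the median of all genes by more than 0.049. Of the single genes named, 116 values of genes short of the threshold changed sign or moved past their spread, 18 lost and 12 gained a call, and 1993 did neither.

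With the replicate number as a block, 0 genes of the set were called in knockdown against normoxia (Rpl10a at an adjusted p of 0.0915 and Rpl3 at 0.104 by edgeR). Of all genes, 3.32% were called higher there and 2% lower. Among 3 groups 0 were called, against 4.77% of all genes. Calls over all genes went from 742 to 400 in hypoxia against normoxia, from 301 to 197 in knockdown against hypoxia and from 1446 to 936 in knockdown against normoxia. Same-numbered libraries had correlations of their deviations from the group means between -0.423 and 0.274, and differently numbered libraries between -0.305 and 0.439. With 3 libraries per group, such correlations cannot decide whether the numbers mark a shared animal, litter or day. The labels do not say.

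Depth limited the copies and Rps10, at 5.37 to 6.47 CPM, more than the abundant subunits.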

Other observations

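Gm10076, a noncoding gene on another chromosome that holds the whole coding sequence of Rpl41 (78 of 78 bases), was noticed after its values were seen. It had 114, 148 and 73 counts under normoxia, 656, 1099 and 340 under hypoxia and 176, 321 and 433 after knockdown, so that every hypoxia and knockdown library exceeded every normoxia library. Rpl41 was measured at 529, 374 and 367 CPM under normoxia, 368, 243 and 514 under hypoxia and 402, 509.9 and 377 after knockdown, with overlap between all groups. Hypoxia 2 had the lowest Rpl41 and the highest Gm10076 of the 9 libraries. Of the 50-base stretches of the Rpl41 transcript, 42% also stand in Gm10076, and the sources used here do not say how reads from them were assigned.

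Rps27a, highest in replicate 3 of each group, has a copy, Rps27a-ps3, that was lowest there: its counts were 209, 79 and 57 under normoxia, 205, 205 and 120 under hypoxia and 217, 199 and 133 after knockdown. The copy Rps27a-ps2, with 92, 57 and 43, 154, 111 and 93 and 72, 96 and 86 counts in the same order, was lowest in replicate 3 of normoxia and hypoxia and in replicate 1 of knockdown. Both were also chosen after their values were seen.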
